A study of Mus musculus with 15 samples.

Results

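The mitochondrial ribosomal protein genes were examined in mouse kidney RNA-seq as the protein-coding genes whose symbol begins with Mrpl or Mrps followed by a number. The rule found 78 genes among the 13933 annotated genes with a transcript in every deposited file, 49 for the large subunit (Mrpl) and 29 for the small subunit (Mrps). All 78 were among the 12366 genes tested, which had at least 1 FPKM (fragments per kilobase of transcript, scaled to the mapped fragments of the library) in at least 5 mice. The samples were kidneys of 15 wild-type C57BL/6 mice in 3 groups of 5, which per the study's methods were young adult males. Control mice received saline by osmotic pump for 28 days, Ang II mice received angiotensin II at 500 ng/kg/min over the same time, and Ang II + QDG mice received the same infusion together with Qingda granule (QDG), a formula of 4 herbs, at 1.145 g/kg/day by gavage. Per the study's methods, Control and Ang II mice were gavaged with water. Angiotensin II is the hormone of the renin-angiotensin system that constricts vessels and raises blood pressure, and its slow infusion is a standard model of hypertension with kidney injury. The comparison of Ang II vs. Control addresses what the infusion did to the kidney, and that of Ang II + QDG vs. Ang II what the granule did on top of it. Both use the same 5 Ang II mice, so their values are not independent of each other.

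Mitochondria carry their own ribosome. Its RNA comes from the mitochondrial genome, while its proteins are encoded in the nucleus, made in the cytosol and imported. The small subunit binds the mRNA and reads its codons, and the large subunit joins the amino acids and feeds the new chain into the inner membrane. This ribosome makes only the core subunits of oxidative phosphorylation that the mitochondrial genome encodes, and tubules of the kidney, above all the proximal tubule, rely heavily on that pathway to power transport. Many of its proteins descend from the bacterial ribosome, and others exist only in mitochondria.

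The depth implied by the values was about 75030000 to 81320000 fragments per mouse in Control, 70680000 to 79290000 in Ang II and 68910000 to 76140000 in Ang II + QDG. Behind a member stood a median over mice of 204 (Mrpl53) to 12522 (Mrpl12) fragments. Of the tissue markers, the proximal tubule gene Lrp2 had 224 ± 14.2 FPKM and the thick ascending limb gene Umod 1023 ± 110 FPKM in Control (SD, n = 5). Renin (Ren1), which serves as a check since its mRNA normally falls under infused Ang II, had 33.2 ± 3.79 FPKM with saline and 30.1 ± 8.97 FPKM with infusion (SD, n = 5 each), which is −0.18 on the log2 scale (adjusted p = 0.718, limma), so this check did not separate the groups. In bulk kidney, fewer cells of a type and less RNA per cell cannot be told apart.

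The members differed widely in level. Mean FPKM over the 15 mice ran from 3.28 (Mrpl15) to 134 (Mrpl12), a 40.8-fold range with a median of 24.0 FPKM, and 54 of the 78 members lay between 10 and 50 FPKM. The median member had 31.1 FPKM in the large subunit and 19.99 FPKM in the small subunit. Mrpl12, which encodes a protein of the stalk that recruits translation factors, had the highest mean. The large-subunit genes Mrpl34 and Mrpl42 followed, with means of 100.9 and 91.4 FPKM. The least abundant were Mrpl15, Mrpl19 and Mrpl53, with means of 3.28, 4.07 and 5.24 FPKM. Spread between Control mice was small for most of them: the coefficient of variation was under 10% for 40 members, with a median of 9.77%, but over 30% for 8 members, up to 105% for Mrpl53.

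Summed over the genes named for the large subunit, the mRNA came to 1482, 1554, 1623, 1748 and 1572 FPKM in the 5 Control mice. The 5 Ang II mice had 1805, 1786, 1634, 1802 and 1775 FPKM, and the 5 Ang II + QDG mice had 1699, 1544, 1512, 1630 and 1529 FPKM. All Ang II mice but the 1 at 1634 FPKM were above every Control and every Ang II + QDG mouse. The mean was 1596 ± 98.7 FPKM with saline, 1760 ± 71.8 FPKM with Ang II and 1583 ± 79.1 FPKM with both agents (SD, n = 5 each). The small subunit behaved alike, with 738, 746, 783, 772 and 765 FPKM in Control, 884, 778, 798, 957 and 830 FPKM in the Ang II mice, and 787, 738, 747, 799 and 730 FPKM in the QDG-treated mice. Its means were 760 ± 18.5, 849 ± 72.3 and 760 ± 30.7 FPKM (SD, n = 5 each), and the Ang II mice overlapped both other groups at their lower end. The mean sum was thus 10.3% higher in Ang II than in Control for the large subunit and 11.7% higher for the small subunit, and the QDG-treated means differed from Control by −0.820% and −0.0666%. The ratio of the large to the small sum was 2.10 ± 0.0978 with saline, 2.08 ± 0.151 with Ang II and 2.08 ± 0.0534 with both agents (SD, n = 5 each), so the group means of this ratio differed by less than the spread between mice. Both sums follow the gene names. The small sum thus holds Mrps18a and Mrps30, which sit in the large subunit, and Mrps36, which is not a ribosomal protein. Their Control means were 44.5, 12.3 and 48.5 FPKM. Sums and ratio with these genes placed otherwise were not computed.

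**Figure D1:**
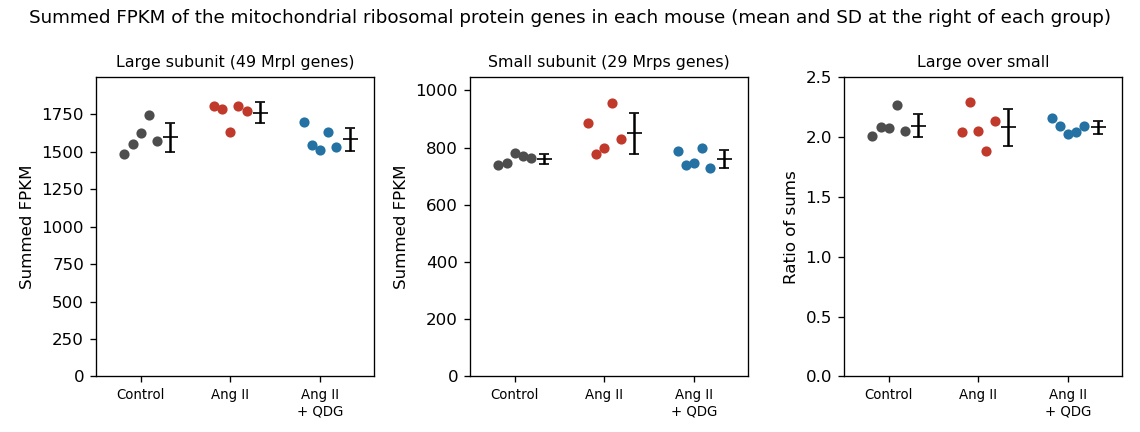
Summed FPKM of the 49 genes named for the large subunit (left) and the 29 named for the small subunit (middle), and the ratio of both sums (right), in each of the 5 mice per group (points), with the group mean and SD beside them. The Ang II means are the highest in both sums, but 1 Ang II mouse at 1634 FPKM (large subunit) and those at 778 and 798 FPKM (small subunit) lie among the values of the other groups, and the ratio stays near 2.1 in the 3 groups.

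Gene by gene, 65 of the 78 members had a higher mean of log2(FPKM + 1) in Ang II than in Control and 13 a lower one. The median log2 fold change was 0.13 for the large subunit and 0.13 for the small subunit, beside 0.08 over all genes tested, of which 64.8% were above 0. Most of the distance of the members from 0 was therefore shared with the transcriptome as a whole. Where every mouse was scaled to the same median, the medians were 0.03 for the large and 0.04 for the small subunit beside −0.00388 over all genes, and 45 members were above 0. A gene was called changed when its p-value from limma, adjusted over all 12366 genes by the Benjamini-Hochberg method, was under 0.05. In Ang II vs. Control 4 of the 78 members (5.13%) were called higher and 0 lower. Of all genes tested, 4.95% were called higher and 0.995% lower, so the share among the members was near the background and is not a result about them. With an unadjusted p under 0.05, 21 members were higher (background 17.9%) and 1 was lower (background 4.83%), but this balance depended on the scaling, with 5 higher and 7 lower under median scaling and 7 higher and 6 lower under quantile normalization. The share of all genes at this p was not computed under these scalings, so their counts have no background and are not a result about the members. No overlap between the 5 Ang II and the 5 Control mice was seen for 9 members that were higher (background 6.49%) and 1 that was lower (background 1.42%).

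The 4 members called higher were 3 of the large subunit and 1 of the small subunit. Mrpl23 (ENSMUSG00000037772, mm10 chromosome 7, 142532686 to 142540747), which sits where the new chain leaves the ribosome, had 19.1, 18.1, 17.8, 18.8 and 17.3 FPKM in the Control mice, 25.2, 20.4, 24.1, 24.9 and 23.5 FPKM in the Ang II mice, and 21.4, 20.8, 21.7, 23.1 and 20.6 FPKM in the QDG-treated mice. Every infused mouse, with or without QDG, was above every Control mouse. Its log2 fold change against Control was 0.35 (standard error 0.06, adjusted p = 0.00822, limma). This call held with any 1 mouse left out and under every alternative fit, but only just with median scaling (0.25, adjusted p = 0.0498, limma). It did not hold by the 2-fold rule of the study, by which 0 members and 1.04% of all genes were called.

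Mrpl12 (ENSMUSG00000039640, chromosome 11, 120484613 to 120489065) had 121, 121, 123, 135 and 127 FPKM in the Control mice, 161, 150, 143, 160 and 150 FPKM in the Ang II mice, and 136, 121, 109, 134 and 121 FPKM in the QDG-treated mice. The Ang II mice stood above all others, and the other groups overlapped each other, with 3 QDG-treated mice below every Control mouse. It rose by 0.28 on the log2 scale against Control (standard error 0.06, adjusted p = 0.0215, limma). Most of it lay in 1 protein-coding transcript of 1316 bases, at 121 ± 5.84 FPKM with saline and 149.8 ± 7.59 FPKM with Ang II (SD, n = 5 each). This call was lost with median scaling (adjusted p = 0.138, limma) and without Control mouse 1 or Control mouse 3 (highest adjusted p = 0.0526, limma).

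Mrps26 (ENSMUSG00000037740, chromosome 2, 130563742 to 130568695), a small-subunit protein found only in mitochondria, had 12.7, 14.6, 15.96, 15.1 and 13.5 FPKM in the Control mice, 17.6, 18.2, 16.4, 21.02 and 22.5 FPKM in the Ang II mice, and 17.6, 14.1, 14.7, 16.6 and 13.6 FPKM in the QDG-treated mice. The lowest Ang II mouse was just above the highest Control mouse. It rose by 0.38 on the log2 scale (standard error 0.10, adjusted p = 0.0329, limma). A transcript annotated with a retained intron held 6.51 ± 1.57 FPKM with saline and 9.68 ± 2.52 FPKM with Ang II, and its protein-coding transcript 7.86 ± 0.652 and 9.46 ± 0.645 FPKM (SD, n = 5 each), and in protein-coding transcripts alone the call was lost (adjusted p = 0.0744, limma). It was also lost with median scaling, with quantile normalization, in a fit of the 10 mice of both groups alone, and when any of 5 mice was left out.

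Mrpl54 (ENSMUSG00000034932, chromosome 10, 81264713 to 81266934), a large-subunit protein also found only in mitochondria, had 37.7, 42.4, 43.4, 55.8 and 40.8 FPKM in the Control mice, 66.0, 57.4, 54.3, 58.7 and 54.8 FPKM in the Ang II mice, and 58.7, 44.5, 42.0, 46.7 and 45.8 FPKM in the QDG-treated mice. One Control mouse at 55.8 FPKM and one Ang II + QDG mouse at 58.7 FPKM lay within the Ang II range. This member rose by 0.41 on the log2 scale (standard error 0.11, adjusted p = 0.0381, limma), and the call was lost when any of 9 of the 15 mice was left out, with median scaling, with quantile normalization, in protein-coding transcripts and in a fit of both groups alone.

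The 1 member whose 5 Ang II mice all lay below the 5 Control mice was Mrps30, which is named for the small subunit but sits in the large subunit in mammals. It had 12.4, 11.8, 12.3, 12.7 and 12.1 FPKM in the Control mice, 11.4, 10.4, 9.62, 11.6 and 11.02 FPKM in the Ang II mice, and 10.53, 9.96, 10.2, 12.1 and 11.6 FPKM in the QDG-treated mice. Its log2 fold change of −0.17 (standard error 0.07) did not pass the threshold (adjusted p = 0.15, limma). It was called lower with median scaling, at −0.26 (adjusted p = 0.0445, limma), and with quantile normalization, at −0.26 (adjusted p = 0.0443, limma), so its call depended on the scaling.

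**Figure D2:**
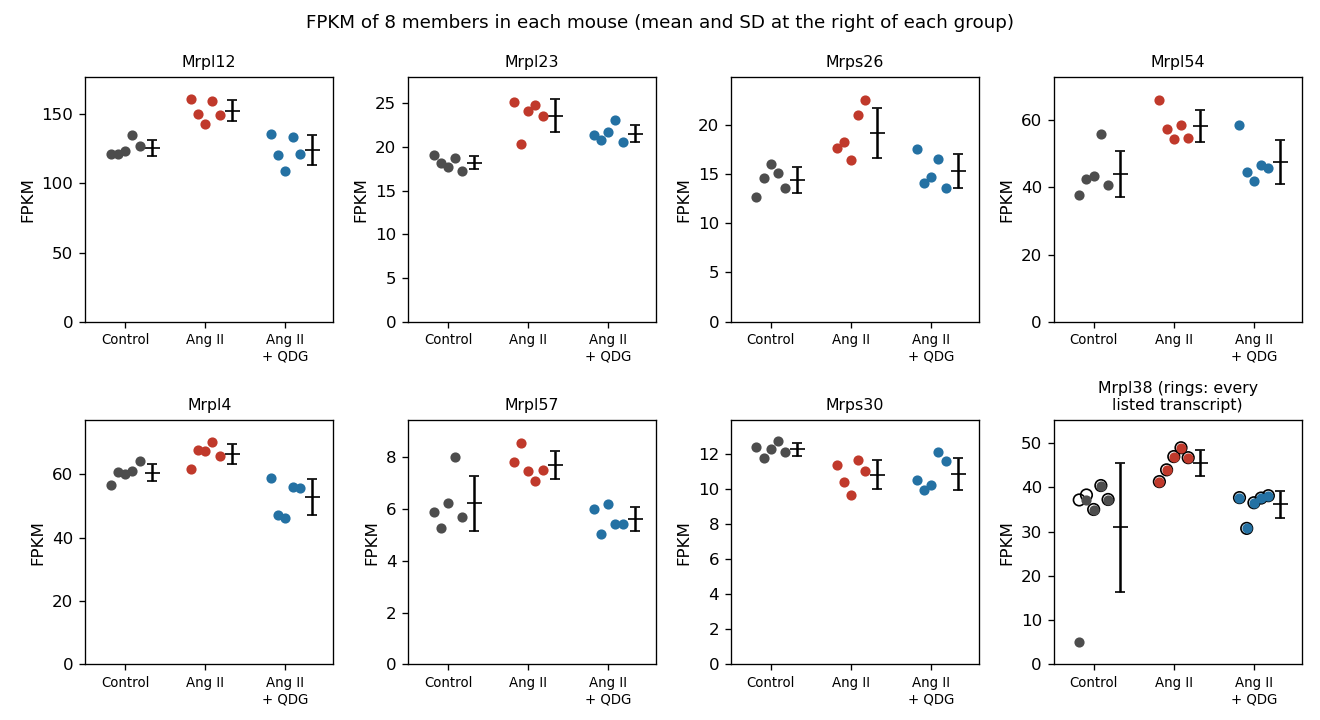
FPKM of 8 members in each mouse (points; y axis from 0), with the group mean and SD beside them: the 4 members called higher in Ang II vs. Control (Mrpl12, Mrpl23, Mrps26, Mrpl54), Mrpl4 and Mrpl57 from the comparison with QDG, Mrps30, and Mrpl38. Mrpl12 is high in the Ang II mice alone, Mrpl23 is above Control in both infused groups, and for Mrpl38 the rings, which add the transcripts listed in a part of the files, move 1 Control mouse from 5.00 to 37.1 FPKM.

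In Ang II + QDG vs. Ang II, 61 of the 78 members had a lower mean of log2(FPKM + 1) and 17 a higher one. The median log2 fold change was −0.13 for the large subunit and −0.16 for the small subunit, beside −0.02 over all genes tested, of which 53.7% were below 0. With median scaling the medians were −0.11 and −0.15 beside −0.00680 over all genes, and 61 members were below 0. With quantile normalization they were nearer to 0, at −0.078 and −0.13 beside 0.0048 over all genes, with 55 members below 0, and 13 members were lower and 3 higher at an unadjusted p under 0.05. The share of all genes at this p was not computed under that scaling. Called lower were 2 members (2.56%), and 0 were called higher, against 1.29% of all genes called lower and 0.526% called higher. With an unadjusted p under 0.05, 22 members were lower (background 10.4%) and 0 higher (background 6.02%). No overlap was seen for 6 members that were lower (background 3.44%) and 0 that were higher (background 1.56%), all 6 in the large subunit. The Ang II mice that stand high in the first comparison are the reference here, so the opposite signs of both comparisons are in part built in.

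Mrpl12 was 1 of the 2 members called lower. It changed by −0.30 on the log2 scale (standard error 0.06, adjusted p = 0.0295, limma), and the 5 QDG-treated mice, at 109 to 136 FPKM, did not reach the lowest Ang II mouse at 143 FPKM. The other was Mrpl4 (ENSMUSG00000003299, chromosome 9, 21002738 to 21008839), a large-subunit protein whose bacterial counterpart lines the exit tunnel. It had 61.8, 67.6, 67.2, 70.2 and 65.7 FPKM in the Ang II mice, 58.9, 47.2, 46.1, 56.1 and 55.5 FPKM in the QDG-treated mice, and 56.7, 60.8, 60.2, 60.9 and 64.1 FPKM in Control. It changed by −0.33 on the log2 scale (standard error 0.07, adjusted p = 0.0295, limma), and 4 of the 5 QDG-treated mice were below the lowest Control mouse as well. Both calls were lost in a fit of the 10 mice of these groups alone, and each was lost when any of 7 of the 15 mice was left out. That of Mrpl4 was lost as well with median scaling and in protein-coding transcripts (adjusted p = 0.0553 and 0.0888, limma). By the 2-fold rule 0 members and 0.817% of all genes were called.

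Next by p-value came Mrpl57 (ENSMUSG00000021967, chromosome 14, 57826234 to 57829296), a large-subunit protein found only in mitochondria. It had 7.82, 8.55, 7.47, 7.09 and 7.48 FPKM in the Ang II mice and 5.98, 5.02, 6.18, 5.41 and 5.43 FPKM in the QDG-treated mice, with no overlap, but at a log2 fold change of −0.40 (standard error 0.09) it stayed just outside the threshold (adjusted p = 0.0507, limma). Control mice had 5.88, 5.25, 6.23, 8.01 and 5.67 FPKM.

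In Ang II + QDG vs. Control, 0 members were called at an adjusted p under 0.05, against 0.129% of all genes called. With an unadjusted p under 0.05, 4 members were higher (background 10.7%) and 4 were lower (background 3.72%), but under median scaling 0 were higher and 16 lower. The latter counts have no background, since the share of all genes at this p was not computed under median scaling. The median log2 fold change was 0.01 for the large subunit and −0.03 for the small subunit, beside 0.06 over all genes tested. Here 37 members were above 0 and 41 below, and under median scaling 19 and 59. The 3 members with the smallest p were Mrpl42, Mrpl23 and Mrpl4, with log2 fold changes of −0.27, 0.23 and −0.20 (adjusted p = 0.113, 0.129 and 0.209, limma). Mrpl42 had 94.8, 96.4, 101.4, 110 and 89.0 FPKM in the Control mice, 106, 89.1, 87.6, 94.4 and 96.0 FPKM in the Ang II mice, and 82.9, 77.8, 82.8, 88.4 and 74.5 FPKM in the QDG-treated mice, so all QDG-treated mice were below all Control mice while the Ang II mice overlapped both. With the transcripts listed in a part of the files added, 1 QDG-treated mouse moved to 94.2 FPKM and this separation was gone.

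**Figure D3:**
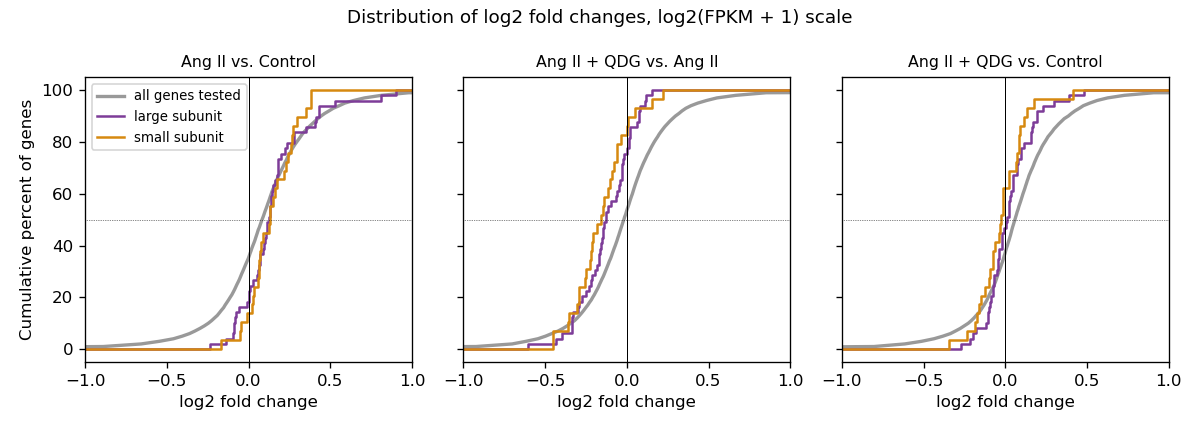
Cumulative percent of genes (y axis) at or below each difference in mean log2(FPKM + 1) (x axis) for the 49 large-subunit genes, the 29 small-subunit genes and all 12366 genes tested. Where the curves cross 50% the members are at 0.13 beside 0.08 in Ang II vs. Control, at −0.13 and −0.16 beside −0.02 in Ang II + QDG vs. Ang II, and at 0.01 and −0.03 beside 0.06 in Ang II + QDG vs. Control.

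**Figure D4:**
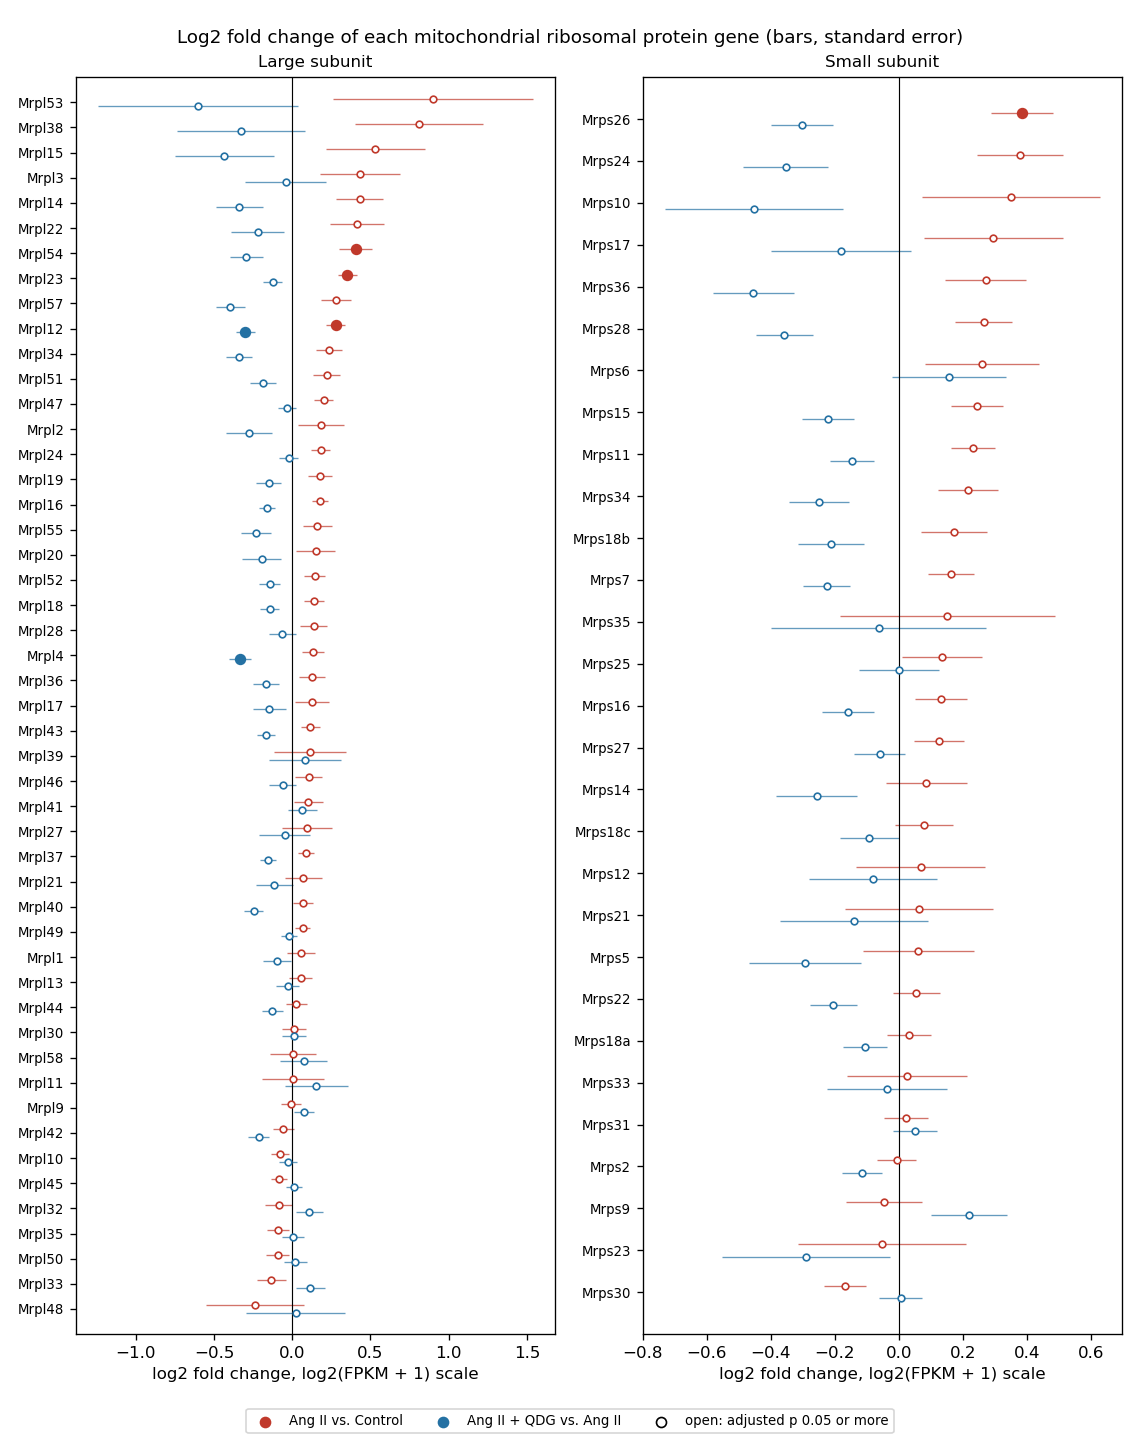
Log2 fold change of each of the 78 members (points) with its standard error (bars), large subunit left and small subunit right, sorted by Ang II vs. Control, with filled points at an adjusted p under 0.05. Both panels have their own x axis, and 4 red points (Ang II vs. Control) and 2 blue points (Ang II + QDG vs. Ang II) are filled.

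The members are given next by their role in the ribosome. In the stalk and the site where translation factors bind, Mrpl12 changed as given above, while Mrpl10 had 41.8 ± 3.23, 39.4 ± 2.09 and 38.6 ± 1.06 FPKM and Mrpl11 had 8.24 ± 1.98, 8.34 ± 2.38 and 9.11 ± 0.994 FPKM in the order Control, Ang II, QDG-treated (SD, n = 5 each). Neither of these partners was called in any comparison. Mrps12, which monitors codon pairing at the decoding site, had 37.7 ± 4.31, 41.3 ± 12.1 and 37.4 ± 4.85 FPKM (SD, n = 5 each).

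Around the peptidyl transferase centre, where peptide bonds form, Mrpl2 had 48.1 ± 3.22, 54.7 ± 2.23 and 46.3 ± 11.1 FPKM in the same order (SD, n = 5 each). Mrpl3 had 8.93 ± 2.62, 12.4 ± 3.67 and 12.4 ± 4.58 FPKM, and Mrpl27 had 35.2 ± 6.99, 37.5 ± 6.47 and 36.1 ± 5.27 FPKM. None of these 3 was called, and for Mrpl3, with 53.8% of its FPKM in protein-coding transcripts, the direction turned in those transcripts, to −0.09 in Ang II vs. Control from 0.43 in the gene sum and to −0.64 in Ang II + QDG vs. Control from 0.39. At the tunnel exit and the contact with the inner membrane, 3 of 4 members had no overlap between Ang II and Control, namely Mrpl23, Mrpl22 and Mrpl24, where 6.49% of all genes were higher without overlap. Mrpl22 had 21.3 ± 5.50 FPKM with saline and 27.9 ± 1.94 FPKM with Ang II, and Mrpl24 had 40.2 ± 2.09 and 45.7 ± 2.36 FPKM (SD, n = 5 each), and only Mrpl23 was called. Mrpl45, the protein that holds the ribosome to the membrane, had 17.5 ± 0.717 FPKM with saline and 16.5 ± 0.790 FPKM with Ang II (SD, n = 5 each), which is −0.09 on the log2 scale.

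The 3 paralogues Mrps18a, Mrps18b and Mrps18c, of which the first sits in the large subunit, were not called in any comparison. Their log2 fold changes in Ang II vs. Control were 0.03, 0.17 and 0.08, and with QDG against Ang II alone −0.10, −0.21 and −0.09. Under median scaling those in Ang II vs. Control were −0.07, 0.07 and −0.02, so the signs for Mrps18a and Mrps18c depended on the scaling. Mrpl58, a peptidyl-tRNA hydrolase that rescues stalled ribosomes, had 12.3 ± 2.61, 12.2 ± 2.06 and 13.0 ± 2.48 FPKM (SD, n = 5 each). Mrps36 carries a ribosomal name but is now known as a subunit of the 2-oxoglutarate dehydrogenase complex of the citric acid cycle. It had 48.5 ± 5.76, 58.8 ± 7.32 and 43.0 ± 8.59 FPKM, and its log2 fold change of −0.45 with QDG against Ang II alone was not called (adjusted p = 0.0826, limma), though in protein-coding transcripts alone it was, at −0.54 (adjusted p = 0.0249, limma).

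The 46 members with a bacterial homologue and the 31 specific to mitochondria, with Mrps36 in neither class, gave like medians. In Ang II vs. Control the median log2 fold change was 0.14 for the former and 0.10 for the latter, with 2 called higher in each (background 4.95%). With QDG against Ang II alone it was −0.14 and −0.13, with 2 and 0 called lower (background 1.29%). These counts are too small to set either class apart from the background.

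The start sites of the members were searched for letters that factors of mitochondrial biogenesis are known to bind. Of the 78 members, 69 had a promoter in the RefSeq table (GRCm38.p6, 250 bases before to 50 bases after a start, 300 bases in all, both strands searched). The NRF1 motif GCGCANGCG was present for 16 of the 69 (23.2%), against 15.5% of the 9020 tested genes with an entry and 7.03% of all 27025 genes. The ETS motif CCGGAAG, bound by GABPA among others, was present for 26 (37.7%, against 20.6% and 9.93%), and the YY1 motif AAGATGGCG for 8 (11.6%, against 3.85% and 1.64%). At least 1 of the 3 was present for 42 members (60.9%, against 34.7% and 16.5%). The ETS and YY1 motifs share the letters AAG, but in none of the 69 did they share these bases. A match describes the letters only. The 150 bases before the start are shown for 4 members chosen among the members described here because they hold a motif, namely Mrpl12, Mrps26 and Mrpl57 from the comparisons above and Mrpl22, which holds motifs of both NRF1 and ETS. The same stretch of Mrpl23 held none of the 3 motifs, but its RefSeq start lies 346 bases from the GENCODE start, and Mrpl4 and Mrpl54 had no entry. The 4 stretches shown all lie on the plus strand, with motif bases in capitals. The RefSeq starts lie 24, 15, 5 and 3 bases downstream of the GENCODE gene starts, in the order printed.
Mrpl12 (chr11:120484487-120484636): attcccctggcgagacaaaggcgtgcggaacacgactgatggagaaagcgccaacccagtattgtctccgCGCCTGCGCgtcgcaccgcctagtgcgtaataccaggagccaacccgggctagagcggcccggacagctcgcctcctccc
Mrps26 (chr2:130563607-130563756): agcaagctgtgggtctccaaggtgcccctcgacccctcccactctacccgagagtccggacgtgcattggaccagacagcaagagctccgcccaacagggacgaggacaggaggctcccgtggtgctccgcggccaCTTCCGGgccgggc
Mrpl57 (chr14:57826089-57826238): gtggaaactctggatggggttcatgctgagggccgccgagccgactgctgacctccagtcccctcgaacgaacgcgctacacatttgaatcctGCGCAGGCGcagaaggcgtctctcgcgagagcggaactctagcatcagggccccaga
Mrpl22 (chr11:58171514-58171663): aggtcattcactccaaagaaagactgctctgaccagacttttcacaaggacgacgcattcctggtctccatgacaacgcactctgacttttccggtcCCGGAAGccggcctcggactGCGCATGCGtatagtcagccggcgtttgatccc

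The capitals mark an NRF1 motif on the opposite strand 80 bases before the start of Mrpl12, an NRF1 motif 57 bases before that of Mrpl57, an ETS motif on the opposite strand 14 bases before that of Mrps26, and in Mrpl22 an ETS motif at 53 and an NRF1 motif at 33 bases. Members with and without a motif had close medians. In Ang II vs. Control the median log2 fold change was 0.09 for the 16 with and 0.12 for the 53 without the NRF1 motif, 0.12 for the 26 with and 0.11 for the 43 without the ETS motif, and 0.11 for the 8 with and 0.11 for the 61 without the YY1 motif. The factors themselves were not called: Nrf1 had 1.99 ± 1.14 FPKM with saline and 2.89 ± 0.910 FPKM with Ang II, Gabpa 10.7 ± 0.651 and 10.4 ± 0.432 FPKM, and Yy1 13.1 ± 1.02 and 13.9 ± 0.534 FPKM (SD, n = 5 each).

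Among 11 tested regulators of mitochondrial biogenesis, 1 was called higher and 1 lower in Ang II vs. Control (background 4.95% and 0.995%). Esrra, a nuclear receptor that drives genes of energy metabolism, rose from 57.8 ± 4.58 to 82.3 ± 9.27 FPKM (SD, n = 5 each), by 0.50 on the log2 scale (adjusted p = 0.00631, limma), with 66.9 ± 3.78 FPKM in the QDG-treated mice. Tfb2m, a transcription factor of the mitochondrial genome, fell from 18.5 ± 1.01 FPKM with saline to 15.6 ± 0.867 FPKM, a change of −0.23 on the log2 scale (adjusted p = 0.0219, limma). Of 27 assembly factors of the mitochondrial ribosome, 2 were called higher and 0 lower: Mpv17l2, with a log2 fold change of 0.33 (adjusted p = 0.0235, limma), and the rRNA methyltransferase Mrm3, with 0.31 (adjusted p = 0.0461, limma). Their median was 0.05, beside 0.13 over all members, and the count was near the background of 4.95%. Of 20 genes for charging mitochondrial tRNAs, Aars2, the alanyl-tRNA synthetase, was the 1 called higher (log2 fold change 0.29, adjusted p = 0.0316, limma), again near that background, and of 12 translation factors 0 were called. The 5 ribosomal proteins named outside the rule (Dap3, Chchd1, Aurkaip1, Ptcd3 and Gadd45gip1) had log2 fold changes of −0.16 to 0.36, with 0 called. With QDG against Ang II alone, 0 genes of these 5 lists were called (background 0.526% higher and 1.29% lower).

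Set beside other parts of the same machinery, the members had medians close to those of both lists compared here. In Ang II vs. Control the median log2 fold change was 0.15 over 76 nuclear subunits of oxidative phosphorylation, with 17 called higher, and 0.16 over 75 cytosolic ribosomal proteins, with 14 called higher, and 0 called lower in either. Beside these counts stand 4 of the 78 members and 4.95% of all genes called higher, so more genes of both lists than of the members were called at like medians, a difference that was not tested. With QDG against Ang II alone the medians were −0.12 and −0.09 beside −0.02 over all genes, with 2 called lower in each (background 1.29%). Per 100 FPKM of the nuclear oxidative phosphorylation genes, the members held 13.6 ± 0.213 FPKM with saline, 13.6 ± 0.402 FPKM with Ang II and 13.3 ± 0.552 FPKM with both agents (SD, n = 5 each), with ranges that overlapped between the groups. Per 100 FPKM of the cytosolic ribosomal protein genes they held 16.6 ± 0.843, 16.7 ± 0.580 and 15.8 ± 0.612 FPKM (SD, n = 5 each), where the QDG-treated mean was lower than that of Ang II by more than either SD although single mice overlapped. Of the genes that the mitochondrial genome encodes, 7 of 11 tested were called lower in Ang II vs. Control (background 0.995%), and with QDG against Ang II alone 2 were called higher (background 0.526%), mt-Co2 and mt-Cytb, subunits of cytochrome oxidase and of complex III. In Ang II + QDG vs. Control 2 of the 11, the ribosomal RNAs, were called lower (background 0.129% called in either direction), 10 of 11 were below 0, and their median log2 fold change was −0.12. All mitochondrially encoded genes with values, tested or not, together took 21.8 ± 0.804% of the annotated FPKM with saline, 17.7 ± 0.268% with Ang II and 20.4 ± 1.54% with both agents (SD, n = 5 each). The ribosomal RNAs that these proteins bind, mt-Rnr1 of the small and mt-Rnr2 of the large subunit, lay at 498 to 615 and 489 to 663 FPKM with saline, at 284 to 410 and 289 to 372 FPKM with Ang II, and at 283 to 392.3 and 262 to 378 FPKM with both agents. Both infused groups were below every Control mouse for both RNAs. The log2 fold changes were −0.74 and −0.76 in Ang II vs. Control (adjusted p = 0.00497 and 0.00631, limma) −0.03 and 0.00327 with QDG against Ang II alone (adjusted p = 0.924 and 0.995, limma), and −0.77 and −0.76 in Ang II + QDG vs. Control (adjusted p = 0.0160 and 0.0227, limma). Libraries were made after rRNA depletion, and what that step left of these RNAs was not tested.

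Some markers of other cells were called in Ang II vs. Control, where 4.95% of all genes were called higher. The sum of 7 podocyte and vascular markers was 114 to 145 FPKM with saline, 144 to 187 FPKM with Ang II and 150 to 188 FPKM with both agents, with 3 of 7 called higher in Ang II vs. Control. The sum of 8 fibroblast and pericyte markers was 49.1 to 74.0, 59.4 to 143 and 76.3 to 97.3 FPKM, with 2 of 8 called higher. Proximal tubule markers summed to 4968 to 16538, 5116 to 7128 and 7301 to 12035 FPKM over 8 genes. Their median log2 fold change was −0.06 in Ang II vs. Control (range −1.12 to 0.29, 3 above 0 and 5 below). With QDG against Ang II alone it was −0.05 (range −0.38 to 1.39, 3 above 0 and 5 below), so the sums do not describe the typical marker. Distal nephron markers summed to 1291 to 1736, 1068 to 1576 and 1441 to 1945 FPKM over 7 genes. Leukocyte markers summed to 13.9 to 26.02, 9.004 to 20.5 and 17.3 to 65.8 FPKM over 5 genes, of which 4 were tested. In these 3 lists 0 were called. Of the 8 markers chosen per list, Slc4a1 (distal), Synpo (podocyte) and Cd3e, Cd79a and Itgam (leukocyte) had no transcript listed for all mice and were not used here, and none of the others was at 0 in all mice. Their part in the values of the members was not tested.

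The gene sums rested on 203 member transcripts found in every file, of which 125 were annotated as protein-coding. These held 91.7 ± 0.458% of the members' FPKM with saline, 90.9 ± 0.290% with Ang II and 91.0 ± 0.755% with both agents (SD, n = 5 each). The 41 transcripts with a retained intron, from 28 members, held 3.75% to 4.86% with saline, 5.00% to 5.75% with Ang II and 4.12% to 5.59% with both agents, so that Ang II and Control were apart while the QDG-treated mice overlapped both. Without Mrpl38, whose reads went to different transcripts in 1 Control mouse, the share was 2.18% to 3.70% with saline, 3.13% to 4.05% with Ang II and 2.61% to 4.10% with both agents, and Ang II and Control overlapped too.

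For Mrpl38, a large-subunit protein found only in mitochondria, the choice of transcripts decided the call. Its value was 5.00 FPKM in 1 Control mouse and 34.9 to 40.4 FPKM in the other 4, and its log2 fold change of 0.81 in Ang II vs. Control had a standard error of 0.41 (adjusted p = 0.264, limma). In that mouse 32.1 FPKM had been assigned to a protein-coding transcript of 1411 bases that the files of the other groups do not list, and in all other mice most reads went to a retained-intron transcript of 1403 bases. With every listed transcript added, Control was 37.6 ± 1.96 FPKM, Ang II 45.5 ± 2.98 FPKM and the QDG-treated group 36.1 ± 3.07 FPKM (SD, n = 5 each). Mrpl38 was then called higher in Ang II vs. Control (log2 fold change 0.27, adjusted p = 0.0303, limma) and lower with QDG against Ang II alone (−0.33, adjusted p = 0.0290, limma). The values of the Ang II and QDG-treated mice were the same in both sums. The fold change between them thus stayed at −0.33, and only its standard error fell, from 0.41 to 0.07. In a fit of these groups alone it was not called (adjusted p = 0.0798, limma). Mrpl38 was singled out after its values were seen.

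Exons of 33 members overlap another annotated gene, and for 23 of these the partner had values in the files, mostly on the opposite strand. The kit is not stated to keep strand, so reads of such pairs cannot be told apart. Mrpl46 and Mrps11 overlap each other in this way, and Mrpl47, with 5.93 FPKM, overlaps Ndufb5, with 88.1 FPKM. Mrpl12 overlaps only a long noncoding RNA on the opposite strand, at 0.747 FPKM. The partner of Mrps26 was not in the files used, and Mrpl23, Mrpl54, Mrpl4 and Mrpl57 overlap no other gene. Processed pseudogenes with a member's name were kept out of the sums, and the 4 with values had means of 0.619 to 1.38 FPKM.

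**Figure D5:**
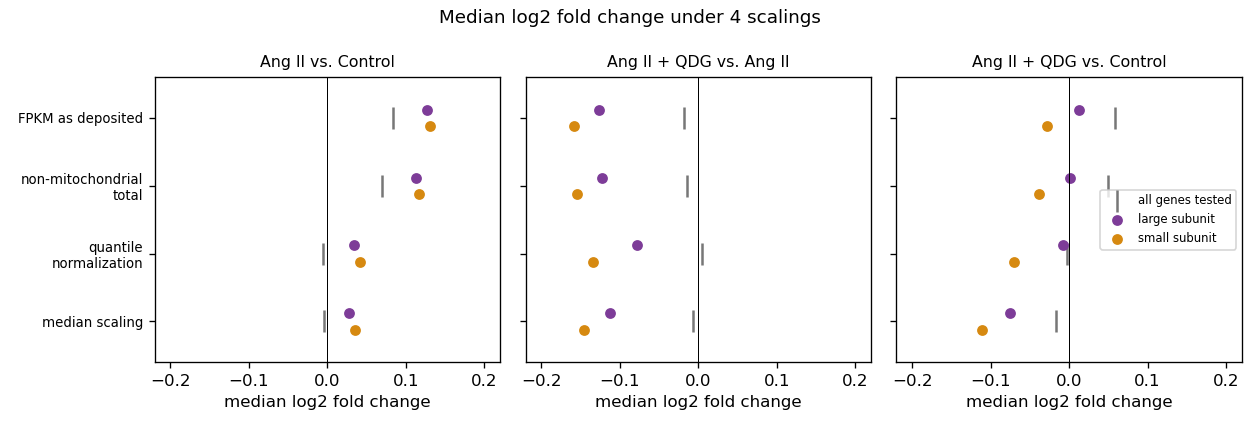
Median log2 fold change (x axis) of the large subunit, the small subunit and all 12366 genes tested under 4 scalings (y axis), in the 3 comparisons. In Ang II vs. Control the members move toward 0 together with all genes (from 0.13 to 0.03 and 0.04 under median scaling), whereas in Ang II + QDG vs. Ang II they stay between −0.08 and −0.16.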

How the data were processed

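For each mouse the deposited file lists transcripts with 1 value each. The authors name limma and mm10 in their processing notes, and the aligner and counter are not given in the sources used here. The deposited values are taken as FPKM, scaled by the authors to transcript length and library depth, because for 98.6% to 98.8% of those under 200 reads the value times the transcript length was a whole multiple (within 0.05) of 1 constant per mouse, which gives the depth. Libraries were made after rRNA depletion, and the study's methods also name a poly(A) step. Of 31301 Ensembl transcripts, 31244 matched GENCODE M21, and those listed for all mice were summed per gene. Transcripts named as merged assemblies (11141 in all files) carry no gene name and are in no sum.

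Genes reaching 1 FPKM in 5 or more mice were tested with limma 3.58.1 (trend, R 4.3.3) on log2(FPKM + 1), fitting the 15 mice jointly (residual df 12). Fold changes are on that scale, which understates low genes. The code was tested on simulated data. Nothing states whether replicates are separate cages or batches, so p-values measure the spread between these mice. Members, lists and the rule for the genes named (those called, the smallest p-values, fixed roles, highest and lowest levels) were chosen with earlier results of these data known. Alternatives changed the pseudocount, filter, scaling, transcripts, samples fitted and call rule.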

Additional observations from a re-analysis of the deposited data

Results flagged for a closer look

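Values far from the other 4 mice of their group, by Dixon's criterion at 95% (a gap of more than 0.710 of the group's range), were found in 10 of 108 groups examined, of which chance gives about 1 in 20. The groups include those of Mrpl38 and Mrpl53, picked after their values were seen (Mrpl53 also for its low level). The count therefore cannot be read against that rate. Among sums, the large subunit was at 1634 FPKM in Ang II mouse 3 (others 1775 to 1805), and the ratio of large to small sum was 2.26 in Control mouse 4 (others 2.01 to 2.08). Single members were Mrpl54 at 58.7 FPKM in Ang II + QDG mouse 1 (others 42.0 to 46.7), Mrpl11 at 4.74 FPKM in Control mouse 1 (others 8.92 to 9.61), Mrps12 at 19.9 FPKM in Ang II mouse 3 (others 44.4 to 47.8), Mrpl2 at 27.0 FPKM in Ang II + QDG mouse 4 (others 48.5 to 54.6), Mrpl58 at 16.9 FPKM in Control mouse 4 (others 10.8 to 11.7) and Mrpl53 at 25.2 FPKM in Ang II + QDG mouse 4 (others 1.24 to 3.09). Mrpl38 was at 5.00 FPKM in Control mouse 1 (others 34.9 to 40.4) and at 30.7 FPKM in Ang II + QDG mouse 2 (others 36.5 to 38.1).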

How the results depend on the processing

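Without 1 mouse, 1 to 7 members were called in Ang II vs. Control (1 without Control mouse 1, 2 without Control mouse 3 or 5 or Ang II mouse 2, 4 or 5, 7 without Control mouse 4), while 2.74% to 6.48% of all genes were called. In Ang II + QDG vs. Ang II it was 0 to 5 (0 without Ang II mouse 2, 4 or 5 or QDG-treated mouse 2, 3 or 5, 1 without Ang II mouse 1, 5 without Control mouse 4 or QDG-treated mouse 1), with 0.432% to 2.03% of all genes. In Ang II + QDG vs. Control 0 were called in each, with 0% to 0.895% of all genes. The large-subunit median ran from 0.10 to 0.16, from −0.15 to −0.11 and from −0.02 to 0.03 in these comparisons, and the small-subunit median from 0.08 to 0.17, from −0.19 to −0.13 and from −0.06 to −0.01. In Ang II vs. Control, 2 members were called with median scaling (1 higher, 1 lower), in protein-coding transcripts and in a fit of the 2 groups alone, 3 with quantile normalization (2 higher, 1 lower), and 0 by the study's rule of a 2-fold change and an unadjusted p under 0.05 (1.04% of all genes, on gene sums). Of all genes, 4.01%, 3.78%, 3.69% and 3.99% were called with the first 4 of these settings. In Ang II + QDG vs. Ang II, 1 was called with median scaling (1.35% of all genes) and 0 in the fit of 2 groups (0.469%) or by the study's rule (0.817%). With median scaling the large-subunit and small-subunit medians were 0.027 and 0.035 in Ang II vs. Control and −0.075 and −0.11 in Ang II + QDG vs. Control, and with quantile normalization 0.034 and 0.042 in Ang II vs. Control. The cause was not tested, but both scalings set the median of all genes near 0 by construction. Moving Mrps18a and Mrps30 to the large subunit and leaving out Mrps36 moved each median by less than the SD between mice. No paired analysis was possible because the replicate numbers were given in accession order and pair no mice. At this depth Mrpl53, with a median of 204 fragments, was the least certain member. The retained-intron share without Mrpl38, an alternative chosen after seeing the data, was 3.03% with saline, 3.72% with Ang II and 3.49% with both agents.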
